A study of Mus musculus with 8 samples.

Results

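Rpl3l and Rpl3 encode the striated-muscle and the ubiquitous form of one protein of the large cytosolic ribosomal subunit. The pair was taken by gene symbol, 2 of the 55421 genes measured, and was selected on RNA levels of these same libraries that were already known, so the POLG and WT values of both genes are given as a description with no test. RNA was sequenced from the right ventricle of 4 WT mice (libraries A to D) and 4 mice homozygous for POLG D257A (libraries E to H), all female and 9 to 10 months old, from heterozygous breeding. The D257A allele sits in the gene of the mitochondrial DNA polymerase, removes its proofreading activity and is carried by every cell of the animal. Levels are FPKM, that is, fragment numbers corrected for the length of a transcript and the size of a library, so that different genes can be set side by side.

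RPL3 is a core protein of the large subunit, bound into the pre-ribosome in the nucleolus and reaching towards the site where peptide bonds are formed. RPL3L is a paralog made in heart and skeletal muscle that can take the place of RPL3 in the ribosome, and mouse hearts without Rpl3l are known to hold more RPL3. In humans, inherited variants of RPL3L are a known cause of early dilated cardiomyopathy.

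Rpl3l (ENSMUSG00000002500.15) lies on the plus strand at chr17:24727820-24736143 of mm10, and Rpl3 (ENSMUSG00000060036.14) on the minus strand at chr15:80077791-80091868. The coding sequences compared here, of GENCODE M21, run over 10 exons in each gene and hold 1224 bases in Rpl3l and 1212 in Rpl3, stop codon included. Of 1209 aligned coding bases, 896 were identical (74.1%), and the longest identical run was 22 bases. The 60 coding bases at positions 163 to 222, the stretch in which the paralogs differed most, show how far the RNAs are apart, and the same stretch of the X-linked pseudogene Rpl3-ps1 shows how close a copy of Rpl3 can be. Capitals mark the 25 bases at which Rpl3l differs from Rpl3, and the Rpl3-ps1 stretch differs at 0.
Rpl3: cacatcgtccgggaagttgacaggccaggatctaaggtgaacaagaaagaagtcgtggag
Rpl3l: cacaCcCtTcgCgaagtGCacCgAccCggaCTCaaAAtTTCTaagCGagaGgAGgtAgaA
Rpl3-ps1: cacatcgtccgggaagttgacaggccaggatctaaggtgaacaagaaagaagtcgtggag
Even at coding positions 520 to 579, where the paralogs are most alike, 8 of 60 bases differ (capitals in Rpl3l).
Rpl3: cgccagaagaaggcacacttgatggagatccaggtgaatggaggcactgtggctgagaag
Rpl3l: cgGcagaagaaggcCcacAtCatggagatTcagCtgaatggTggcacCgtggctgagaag
Of all windows of 100 bases in the Rpl3 transcript, 79.4% occur in a transcript of another gene, 7 genes in all, and 85.6% of windows of 50 bases do so, in 26 genes. For Rpl3l the share was 0% at both lengths. Fragments of Rpl3l of these lengths thus match no other annotated transcript exactly, whereas the Rpl3 level depends on how fragments were divided between the gene and its copies.

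Rpl3l was lower and Rpl3 was higher in POLG than in WT, without overlap between the genotypes for either gene. In WT, Rpl3l was at 98.7, 104, 95.6 and 92.6 FPKM in libraries A to D. In POLG it was at 59.3, 51.9, 62.4 and 51.0 FPKM in E to H. Every POLG library was therefore below every WT library, with a gap between the lowest WT value (library D) and the highest POLG value (library G). The mean level was 97.7 ± 4.95 FPKM (SD, n = 4) for WT and 56.2 ± 5.58 FPKM (SD, n = 4) for POLG, so POLG held 0.575 of the WT level. On the log2(FPKM + 1) scale, used for all fold changes below, the difference was -0.79 (SE 0.085).

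Rpl3 was at 33.5, 28.2, 36.3 and 36.4 FPKM in WT A to D. It was at 45.0, 49.1, 41.3 and 39.2 FPKM in POLG E to H. The genotypes again did not overlap, although POLG H lay close above WT C and D. The mean level was 33.6 ± 3.86 FPKM (SD, n = 4) for WT and 43.7 ± 4.35 FPKM (SD, n = 4) for POLG, with a ratio of 1.30 and a log2 difference of 0.37 (SE 0.11). Within WT, library B had the most Rpl3l and the least Rpl3, whereas within POLG, library H had the least of both.

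Among the 10236 genes that averaged 1 FPKM or more, 109 had a lower log2 fold change than Rpl3l and 462 a higher one than Rpl3. For the background, limma called 217 of these genes lower (2.12%) and 71 higher (0.694%) at an adjusted p under 0.05. Every POLG library lay below every WT library in 12.9% of genes, as it did for Rpl3l, and above it in 2.96%, as it did for Rpl3. These shares are set beside the pair as a description, since the pair was selected with this contrast known.

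In FPKM, the excess of Rpl3 was smaller than the shortfall of Rpl3l, and the summed level of the pair was lower in POLG. Rpl3l plus Rpl3 came to 132.2, 132.3, 131.9 and 128.9 FPKM in WT A to D, a narrow range. In POLG E to H the sum was 104.3, 101.0, 103.7 and 90.3 FPKM. All POLG sums were below all WT sums, with POLG H lowest. The mean sum was 131 ± 1.62 FPKM (SD, n = 4) for WT and 99.8 ± 6.52 FPKM (SD, n = 4) for POLG, a ratio of 0.760. In bulk tissue, fewer cells of a type and less RNA per cell cannot be told apart.

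**Figure D1:**
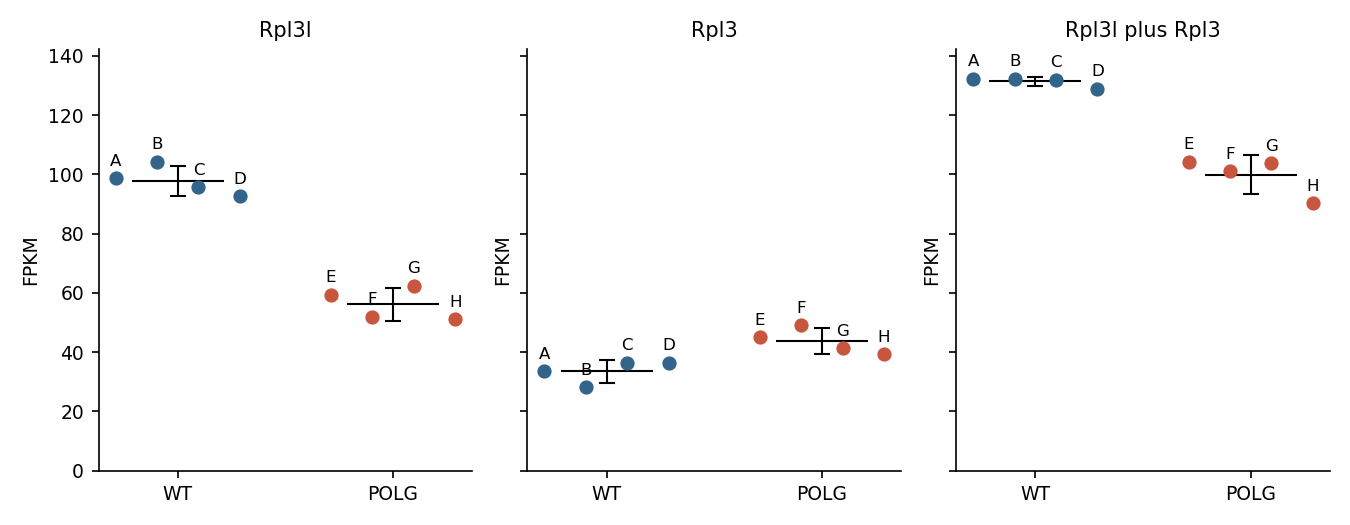
FPKM of Rpl3l, Rpl3 and their sum in each library (points, lettered A to D for WT and E to H for POLG), with the mean (line) and SD (bar, n = 4). Rpl3l averages 97.7 in WT and 56.2 in POLG, Rpl3 33.6 and 43.7, and no panel has overlapping genotypes.

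The make-up of the pair differed between the genotypes in the same way. Rpl3l made 74.6, 78.7, 72.5 and 71.8% of the summed FPKM in WT A to D. It made 56.9, 51.4, 60.2 and 56.5% in POLG E to H. With the copies of Rpl3 left aside, Rpl3l was thus the more abundant paralog in all 8 libraries, and in POLG F the paralogs were nearly level. The mean share was 74.4% ± 3.13 (SD, n = 4) in WT and 56.2% ± 3.64 (SD, n = 4) in POLG.

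As a ratio, which does not depend on how a library is scaled, Rpl3l over Rpl3 was 2.94, 3.70, 2.63 and 2.54 in WT A to D. It was 1.32, 1.06, 1.51 and 1.30 in POLG E to H. The lowest WT ratio, in library D, was above the highest POLG ratio, in library G. The mean log2 ratio was 1.55 ± 0.24 (SD, n = 4) in WT and 0.36 ± 0.22 (SD, n = 4) in POLG, which differ by -1.18 (SE 0.16). Leaving out any single library gave differences from -1.26 to -1.07.

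**Figure D2:**
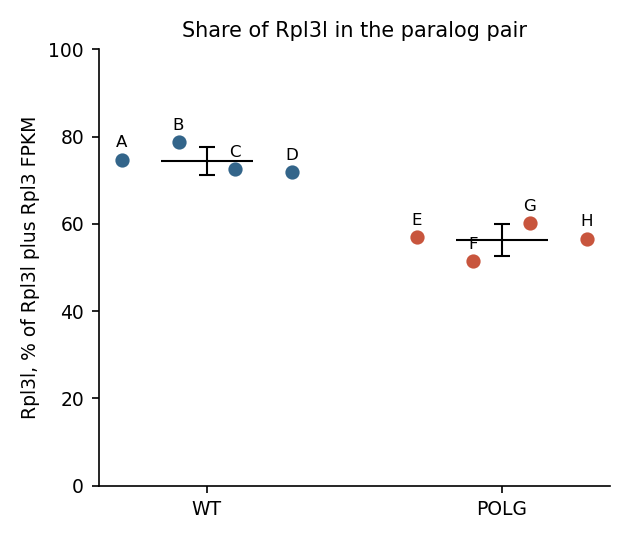
Rpl3l as a percentage of the summed FPKM of Rpl3l and Rpl3 in each library (lettered points), with the mean (line) and SD (bar, n = 4). The WT libraries lie between 71.8% and 78.7% and the POLG libraries between 51.4% and 60.2%.

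WT C and WT D stood apart from the other 6 libraries in the atrial genes Myl7 and Sln. The 8 listed atrial markers summed to 50.6 to 657 FPKM in WT and 79.4 to 211 FPKM in POLG, so other members of that list held signal outside WT C and D. In WT C and D the atrial myosin light chain gene Myl7 reached 51.7 and 110 FPKM, with at most 0.498 FPKM elsewhere, and Sln, the atrial sarcolipin, reached 4.87 and 13.3 FPKM against 0 in the others. In these libraries Rpl3l was lower and Rpl3 higher than in WT A and B. Without both, the log2 fold change was -0.85 for Rpl3l and 0.49 for Rpl3, and the log2 ratio differed by -1.36, in each case farther from 0 than with all 8 libraries.

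Annotated copies of Rpl3 were also listed with signal. Rpl3-ps1, on chromosome X, matched the Rpl3 transcript at 99.8% of 1210 aligned bases and was listed at 4.07, 6.77, 5.88 and 9.58 FPKM in WT A to D. In POLG E to H it was listed at 8.54, 10.8, 7.93 and 11.1 FPKM. The ranges overlapped, and the log2 fold change was 0.52 (SE 0.21). Rpl3-ps2, also on chromosome X and 98.8% identical, had means of 1.36 FPKM in WT and 1.98 FPKM in POLG. The other 5 copies of at least 95% identity had group means from 0.0923 to 0.682 FPKM, all 5 higher in POLG.

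These 7 copies summed to 9.23 ± 2.47 FPKM (SD, n = 4) for WT and 13.4 ± 2.29 FPKM (SD, n = 4) for POLG, with overlapping ranges. Whether that signal came from the copies or from Rpl3 cannot be told apart in these values. With all 7 counted as Rpl3, the Rpl3 level was 42.8 ± 4.96 FPKM (SD, n = 4) for WT and 57.1 ± 4.82 FPKM (SD, n = 4) for POLG. The log2 ratio of Rpl3l to Rpl3 then differed by -1.22 (SE 0.17). Rpl3l made 69.5% of the pair in WT and 49.6% in POLG. Counted in this way, Rpl3l was the less abundant paralog in POLG F (44.7%) and POLG H (48.2%) and the more abundant one in the other 6 libraries.

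No other gene of the cytosolic ribosome had a fold change as low as Rpl3l or as high as Rpl3. The pair was selected with this contrast known, so its place at both ends of the list is only a description. Of 46 further large-subunit and 33 small-subunit genes, all 79 had a log2 fold change above that of Rpl3l and below that of Rpl3. With limma, 0 of 79 passed at an adjusted p under 0.05 in either direction, and at an unadjusted p under 0.05 there was 1 in each. Their median log2 fold change was -0.05, beside -0.09 for all genes tested, and the range was -0.55 to 0.20. The sign of that small median depended on scaling: 19 of the 79 were above 0 as deposited, 9 with scaling to nuclear-encoded genes, 42 after quantile normalization, 67 after median ratio scaling and 49 without WT C and D.

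The ribosomal gene nearest to Rpl3l in fold change was Rps27a, which encodes a ubiquitin fusion of a small-subunit protein, with means of 25.1 FPKM in WT and 16.4 FPKM in POLG (log2 fold change -0.55, limma adjusted p = 0.117). Without WT C and D it passed, at an adjusted p of 0.0271 with limma. The nearest to Rpl3 was Rpl38, a large-subunit protein gene, with 71.4 FPKM in WT and 82.3 FPKM in POLG (log2 fold change 0.20, limma adjusted p = 0.119). Rpl7, of the large subunit, had a log2 fold change of -0.18 (limma adjusted p = 0.244), and Rps2, of the small subunit, -0.26 (limma adjusted p = 0.243). By mean level among 48 large-subunit genes, the pair included, Rpl3l stood at rank 12 in WT and 20 in POLG, and Rpl3 at 36 and 28.

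Relative to the mean log2 level of the other large-subunit genes in the same library, Rpl3l differed by -0.74 (SE 0.10) between POLG and WT. Rpl3 differed by 0.42 (SE 0.094) on the same scale. Neither difference showed overlapping genotypes. Among further paralogs of ribosomal proteins, 9 of 10 listed were in the table, 7 were tested and 0 passed with limma (2 lower and 0 higher at an unadjusted p under 0.05). Rpl22l1, a paralog of Rpl22, had a log2 fold change of -0.26 (limma adjusted p = 0.196), and Rpl7l1, a paralog of Rpl7, -0.22 (limma adjusted p = 0.220).

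**Figure D3:**
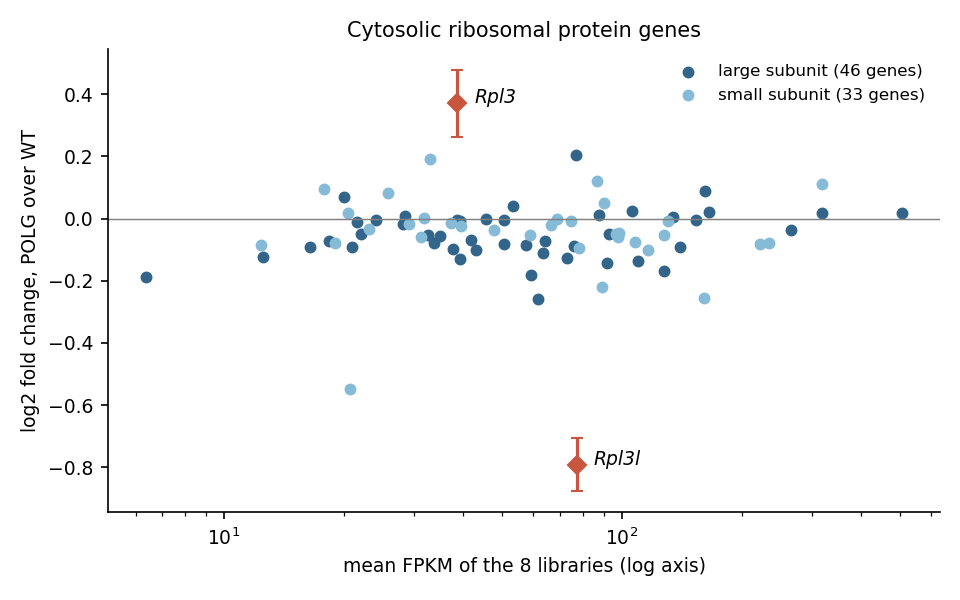
Log2 fold change (POLG over WT) against mean FPKM (log axis) for 46 large-subunit (dark) and 33 small-subunit (light) protein genes, with Rpl3l and Rpl3 as diamonds with SE bars. The 79 other genes lie between -0.55 and 0.20, Rpl3l at -0.79 and Rpl3 at 0.37.

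The mean log2 level of the cardiomyocyte markers was also lower in POLG, by less than that of Rpl3l. The 12 cardiomyocyte markers, among them myosins, troponins and calcium-handling genes, were all present. Of these, 2 fell with limma, Tnni3 of the thin filament (log2 fold change -0.57, adjusted p = 0.00892) and Myh6, the main adult myosin heavy chain (log2 fold change -0.61, adjusted p = 0.0370). The other 10 did not pass, and of all genes tested 2.12% were called lower. The call of Tnni3 was lost without WT C and D (adjusted p = 0.0820 with limma), and that of Myh6 in 6 of 8 fits that left out a single library.

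The mean log2(FPKM + 1) of the 12 markers was 9.13 ± 0.074 (SD, n = 4) in WT and 8.87 ± 0.066 (SD, n = 4) in POLG. Rpl3l minus that mean was -2.40, -2.40, -2.62 and -2.59 in WT A to D. It was -2.88, -3.21, -2.92 and -3.13 in POLG E to H. Relative to cardiomyocyte RNA as these markers measure it, Rpl3l was thus lower in every POLG library than in any WT library. The difference was -0.54 (SE 0.10), smaller than the -0.79 of Rpl3l alone.

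Set against each marker singly, the log2 ratio of Rpl3l to the marker was lower in POLG for all 12. The lowest log2 fold change of any marker was -0.61, against -0.79 for Rpl3l, which was selected with this contrast known. All 12 ratios share Rpl3l, so their common direction follows from those values and is no further evidence. The differences ran from -0.19 (SE 0.17) against Myh6 and -0.23 (SE 0.080) against Tnni3 to -0.82 (SE 0.11) against Actn2, the Z-disc actinin. The genotypes did not overlap for 7 markers: Actn2, Mybpc3, Myl3, Ckm, Myl2, Pln and Ryr2. They overlapped for the other 5, Myh6 and Tnni3 included, so the distance of Rpl3l from cardiomyocyte genes depended on the gene chosen. Rpl3l alone showed no overlap either. Of all genes tested, 12.9% had every POLG library below every WT library.

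**Figure D4:**
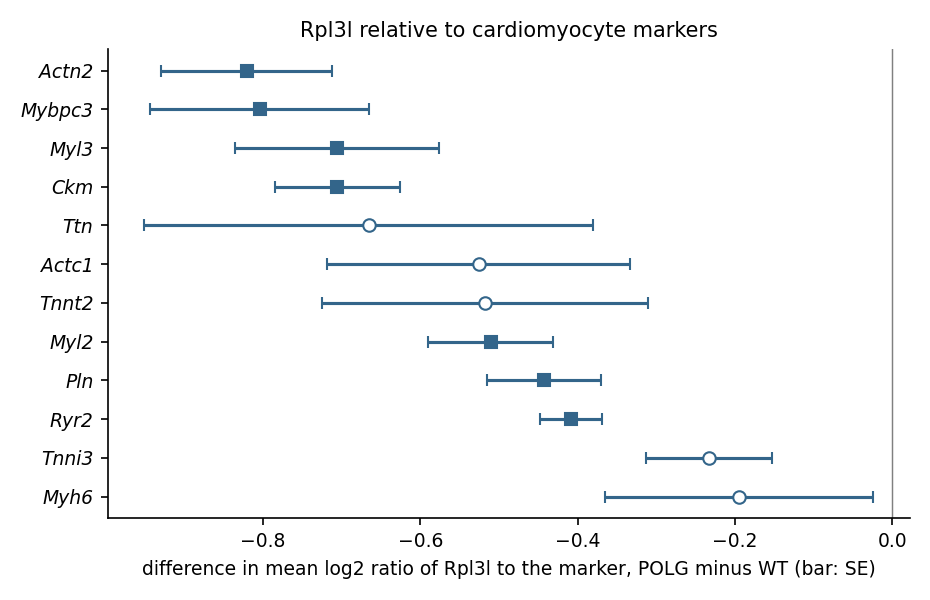
Difference between POLG and WT in the mean log2 ratio of Rpl3l to each of 12 cardiomyocyte markers (bar: SE, n = 4 per genotype). Filled squares mark the 7 markers for which the genotypes do not overlap, and all 12 points lie below 0, from -0.82 for Actn2 to -0.19 for Myh6. All 12 ratios share Rpl3l, a gene selected with this contrast known.

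Rpl3 is made by all cell types, so the markers of other cells are given beside it. The shares over all genes tested were 0.694% called higher with limma and 2.12% called lower. Erythroid RNA was higher in POLG: the 6 markers summed to 890 to 1956 FPKM in WT and 2722 to 4885 FPKM in POLG, and 4 of 5 tested rose with limma (Alas2, Hba-a1, Hba-a2 and Hbb-bt, log2 fold changes of 1.34 to 1.58, adjusted p from 0.0194 to 0.0380, each call lost in 5 to 7 of 8 fits that left out a single library). All 8 macrophage markers had fold changes above 0 (6987 of all 10236 genes tested were below 0), and 0 passed with limma (4 higher at an unadjusted p under 0.05), with sums of 116 to 146 FPKM in WT and 121 to 187 FPKM in POLG. Endothelial markers summed to 146 to 268 FPKM in WT and 212 to 263 FPKM in POLG, and 0 of 9 passed with limma (1 higher at an unadjusted p under 0.05). The sums of fibroblast markers, 414 to 525 FPKM in WT and 200 to 355 FPKM in POLG, were lower in POLG, although 0 of 9 passed with limma (3 lower at an unadjusted p under 0.05). The part of these cells in the Rpl3 level was not tested.

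Among the remaining marker lists, of 8 pericyte and smooth muscle markers only Myh11, a smooth muscle myosin, fell (log2 fold change -0.50, limma adjusted p = 0.0370), and its call was lost whichever library was left out. Of all genes tested, limma called 2.12% lower and 0.694% higher. The lymphocyte and adipocyte lists had 0 genes tested, with sums of at most 2.67 and 5.95 FPKM. Of 5 mesothelial markers 2 were tested, and 0 passed with limma (1 lower at an unadjusted p under 0.05). In skeletal muscle, the other tissue known for Rpl3l, the markers that passed the filter were Acta1 and Ckm, both also made in heart, and Acta1 rose.

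Muscle-enriched paralogs of other proteins were set beside the pair. Of 16 pairs listed, 14 had both genes at an average of 1 FPKM or more, and in 10 of them the muscle form was lower relative to the ubiquitous form in POLG, with a median log2 difference of -0.21. By an exact two-sided permutation test over 70 assignments, 0 of 14 passed after adjustment over the pairs (smallest adjusted p = 0.10). The smallest p that 4 against 4 libraries allow is 0.0286, and more than 8 pairs would have had to reach it for any to pass. It was reached by 4 pairs, all lower in POLG, and is reached only where the genotypes do not overlap. Of single genes tested, 12.9% had every POLG library below every WT library and 2.96% had every one above. None of the 14 pairs differed by as much as Rpl3l over Rpl3, which was selected with this contrast known, so that comparison is a description.

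Of these, Eef1a2 over Eef1a1, the muscle and nerve form and the common form of the factor that brings aminoacyl-tRNA to the ribosome, differed by -0.59 (SE 0.15, exact permutation test, adjusted p = 0.10). Eno3 over Eno1, the enolases of glycolysis, differed by -0.58 (SE 0.14), Cox6a2 over Cox6a1 of complex IV by -0.45 (SE 0.12), and Cpt1b over Cpt1a, which pass fatty acids to mitochondria, by -0.43 (SE 0.17), each with the same exact adjusted p. The difference of Actc1 over Actb, -0.60 (SE 0.35), was the lowest of the 14, and its genotypes overlapped. In the opposite direction, Fabp3 over Fabp5 differed by 0.40 (SE 0.27) and Ckm over Ckb by 0.29 (SE 0.24).

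The elongation factor pair has the same form as Rpl3l and Rpl3. Eef1a2 was at 473, 511, 433 and 477 FPKM in WT A to D, and at 385, 385, 375 and 439 FPKM in POLG E to H. Eef1a1 was at 186, 199, 188 and 218 FPKM in WT and at 264, 269, 260 and 207 FPKM in POLG. POLG H was the exception in both, with levels inside the WT range, while in Rpl3l over Rpl3 it lay with the other POLG libraries. Neither gene passed with limma (adjusted p = 0.105 for Eef1a2 and 0.106 for Eef1a1).

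**Figure D5:**
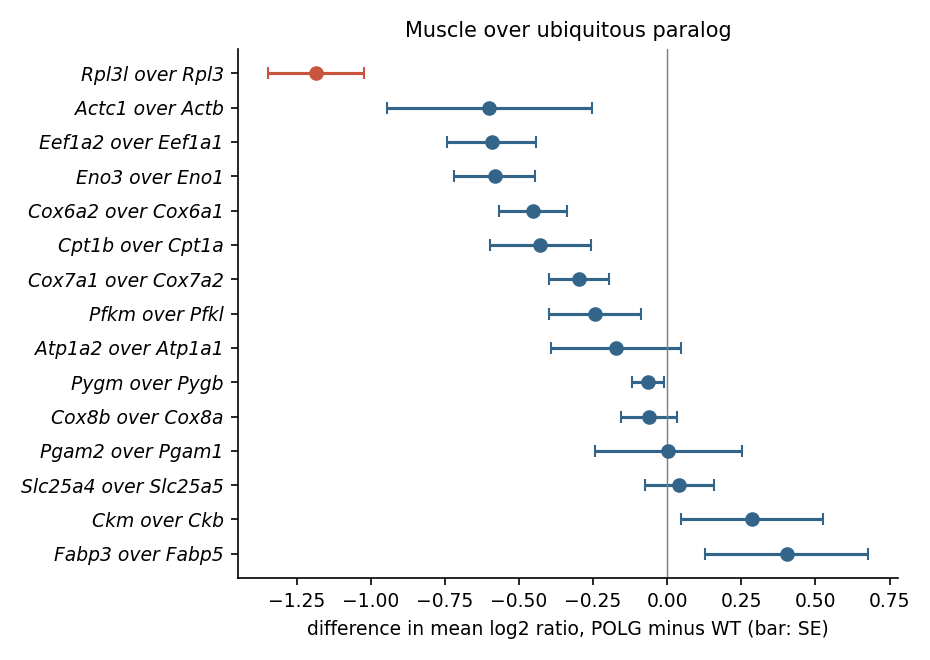
Difference between POLG and WT in the mean log2 ratio of the muscle to the ubiquitous paralog (bar: SE, n = 4 per genotype) for 14 tested pairs and for Rpl3l over Rpl3. The Rpl3l pair lies at -1.18 and the others between -0.60 and 0.40.

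Calls in the pathways around the pair are set beside the shares over all genes tested, 2.12% called lower and 0.694% called higher. Of 12 elongation factors 11 were tested and 0 passed with limma (1 higher and 2 lower at an unadjusted p under 0.05), Eef1d having the smallest adjusted p (log2 fold change -0.23, adjusted p = 0.0958). Of 16 genes for folding, modifying and placing RPL3 in the pre-ribosome 14 were tested and 0 passed with limma (0 higher and 1 lower at an unadjusted p under 0.05). Grwd1, which encodes a chaperone of RPL3, had means of 3.13 FPKM in WT and 3.40 FPKM in POLG, chosen after its values were seen. Ebna1bp2, an assembly factor of the large subunit, had a log2 fold change of -0.38 (limma adjusted p = 0.107) and Mettl18, which in human cells methylates RPL3, of -0.23 (limma adjusted p = 0.365).

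Of 33 further nucleolar and assembly factors 31 were tested and 0 passed with limma (0 higher and 2 lower at an unadjusted p under 0.05). The smallest adjusted p values were those of Nol11 (log2 fold change -0.21, limma adjusted p = 0.203) and Nolc1 (log2 fold change -0.25, limma adjusted p = 0.218). In the list of RNA polymerase I and its factors, which make ribosomal RNA, 1 of 14 tested genes fell and 0 rose. Polr1a, the largest polymerase I subunit, was at 3.72, 3.58, 4.09 and 3.99 FPKM in WT and at 2.80, 2.82, 2.82 and 2.58 FPKM in POLG (log2 fold change -0.37, SE 0.072, limma adjusted p = 0.0388).

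RPL3 is known in human cells to limit its own mRNA through splicing and nonsense-mediated decay. A list of 17 genes held decay factors and the RNA-binding protein genes Khsrp and Hnrnph1, and of these 17 genes 1 fell and 0 rose. A link of these genes to the Rpl3 level was not tested. Upf1, the helicase of nonsense-mediated decay, was at 8.41, 9.29, 9.21 and 10.6 FPKM in WT and at 6.49, 6.89, 6.76 and 5.99 FPKM in POLG (log2 fold change -0.46, SE 0.085, limma adjusted p = 0.0367). Fold changes were below 0 for 15 of the 17, beside 6987 of all 10236 genes tested. Among mTOR genes and regulators of ribosomal protein mRNA, 1 of 19 tested genes fell and 0 rose. Larp1, which binds the start of ribosomal protein mRNAs, was at 11.5, 11.0, 9.70 and 10.4 FPKM in WT and at 4.98, 6.22, 4.81 and 8.69 FPKM in POLG (log2 fold change -0.73, SE 0.16, limma adjusted p = 0.0487).

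Muscle transcription factors held 1 fall and 0 rises among 16 tested genes. Klf15, a factor of cardiac metabolism, was at 16.3, 15.6, 18.4 and 15.2 FPKM in WT and at 10.3, 7.13, 9.97 and 10.8 FPKM in POLG (log2 fold change -0.73, SE 0.13, limma adjusted p = 0.0318). Its groups did not overlap, nor did those of the other genes of these lists that passed (Polr1a, Upf1, Larp1 and Acta1). These genes were picked by a test on the same libraries, so the separation is no further evidence. Over all genes tested, 12.9% had every POLG library below every WT library and 2.96% had every one above. In the stress and fetal program, 1 of 13 tested genes rose and 0 fell. Acta1, the skeletal actin, was at 58.4, 45.4, 24.5 and 14.9 FPKM in WT and at 145, 116, 124 and 146 FPKM in POLG (log2 fold change 2.03, SE 0.36, limma adjusted p = 0.0339). The calls of Polr1a and Upf1 were lost whichever library was left out, that of Larp1 in 7 of 8 such fits, that of Acta1 in 6 and that of Klf15 in 5.

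Genes beside the pair in the genome were looked at for a shared change. Within 50 kb of Rpl3l, 6 of 14 annotated genes were tested, and within 50 kb of Rpl3, 2 of 7, and 0 of the 8 passed with limma (3 lower and 0 higher at an unadjusted p under 0.05). Msrb1, a methionine sulfoxide reductase 499 bases from Rpl3l, had means of 58.2 FPKM in WT and 59.9 FPKM in POLG (log2 fold change 0.05, SE 0.095, limma adjusted p = 0.815). Ndufb10, a complex I subunit on the other side of Rpl3l, had means of 312 and 272 FPKM (log2 fold change -0.20, limma adjusted p = 0.120). The fold changes of Rps2, Gfer, Tbl3 and Zfp598 lay between -0.27 and -0.19. Syngr1, which overlaps Rpl3 on the opposite strand, had means of 9.05 FPKM in WT and 8.97 FPKM in POLG, and Tab1 had a log2 fold change of -0.29 (limma adjusted p = 0.125). For Ndufb10, Gfer and Tab1 the POLG libraries all lay below the WT libraries, as in 12.9% of all genes tested.

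The genes most like each paralog were ranked by Pearson r of log2(FPKM + 1) over the 8 libraries, among 4082 other genes that averaged 5 FPKM or more and were either protein-coding or named by more than a clone or predicted-gene number. The points share genotype and library, so r is a description. Most like Rpl3l were Gcdh (r = 0.978) and Pcca (r = 0.977), mitochondrial enzymes of amino acid breakdown, Oat (0.971), Sqor (0.968), Ryr2, the calcium release channel of cardiomyocytes (0.966), and Cox6a2 (0.966). After genotype means were subtracted, r was 0.588 for Gcdh, 0.778 for Pcca, 0.872 for Ryr2 and 0.160 for Cox6a2, so most of the likeness of Cox6a2 lay in the difference between genotypes. Least like Rpl3l were mt-Tp (r = -0.981), mt-Tt (-0.973), Vwa8 (-0.971), Irx3 (-0.953), Tmem245 (-0.952) and Sik3 (-0.952). Within genotype, r was -0.574 for mt-Tp, -0.295 for mt-Tt, -0.614 for Vwa8, -0.537 for Irx3, -0.413 for Tmem245 and -0.156 for Sik3. By northern blot the authors saw no significant change of MT-TP, and they relate its rise in sequencing to library generation.

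Rpl3 had other neighbours. Most like it were Vwf, the clotting factor of endothelial cells (r = 0.967, and 0.902 within genotype), Bri3 (0.942), Slc6a6 (0.933), Dnajb6 (0.911), Plaat3 (0.900) and Eng, an endothelial receptor (0.892). Least like it were Nudc (r = -0.954), Neurl2 (-0.941), Rpp25l (-0.930), Pcca (-0.930), Idh3g (-0.917) and Ndufb8 (-0.917). Pcca was thus near the top for Rpl3l and near the bottom for Rpl3. Between the paralogs themselves r was -0.843 over the 8 libraries.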

How the data were processed

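Right ventricular RNA of 4 WT and 4 POLG mice was analysed, taken as 1 library per mouse from the numbers in the methods of the study. The authors prepared stranded poly(A) libraries, aligned them to mm10 by HISAT2 and deposited gene-level FPKM of StringTie, with 0.0001 in place of 0 (read as 0 here). The notes of the submitters also name cutadapt, FastQC and edgeR, all with versions not given in the sources used here. A ratio of means and its log2, which the authors deposited beside the FPKM, were not used. FPKM carry no read totals, so no count test was run and precision was taken from the spread between mice.

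The fit used limma 3.58.1 (R 4.3.3) with a trended prior variance on log2(FPKM + 1), for genes averaging 1 FPKM or more, and a gene passed if its p after Benjamini-Hochberg adjustment was under 0.05. The step was tested on simulated data. Paralog pairs were compared by exact permutation. Copies of Rpl3 were found with blastn in GENCODE M21 transcripts. Members, lists, pairs and tests were chosen with earlier results of these data known. Named genes were the pair, its copies and neighbours within 50 kb, the 6 most and 6 least like genes, and of each list up to 4 that passed, or the 2 with the smallest p. The alternatives tried were other pseudocounts, filters, scalings and priors, copies added to Rpl3, and leaving out libraries.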

Additional observations from a re-analysis of the deposited data

Results flagged for a closer look

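Of 84 groups of 4 libraries looked at, over 42 values, 6 held a library far from the other 3, and chance flags about 1 in 20 groups. The summed FPKM of Rpl3l and Rpl3 was 128.9 in WT D, beside 131.9 in the nearest WT library. The log2 ratio of Eef1a2 to Eef1a1 was 1.09 in POLG H, beside 0.54 in the nearest POLG library, and that of Eno3 to Eno1 was 4.55 in POLG H, beside 4.05. The log2 ratio of Pgam2 to Pgam1 was 3.52 in POLG F, beside 4.21. Rps2, a neighbour of Rpl3l, was at 199 FPKM in WT B, beside 169 FPKM, and Polr1a at 2.58 FPKM in POLG H, beside 2.80 FPKM. Rpl3l, Rpl3 and their ratio gave no such library.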

How the results depend on the processing

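The log2 fold changes of Rpl3l and Rpl3 and the difference in their ratio kept their signs under each alternative run for them (for the ratio, pseudocounts, left-out libraries and added copies, not quantile normalization). Leaving out single libraries gave -0.84 to -0.75 for Rpl3l, 0.29 to 0.42 for Rpl3 and -1.26 to -1.07 for the log2 ratio. Rpl3l moved by more than the spread between mice with median ratio scaling (-0.68) and relative to the cardiomyocyte markers (-0.54). The 71 genes higher became 19 with no filter, 131 with median ratio scaling, 136 with quantile normalization, 12 without WT C and D, and 11 to 62 without single libraries. The 217 genes lower became 58, 120, 139, 16, and 31 to 116 in the same settings. The higher share of calls was 24.7%, and 52.2% with median ratio scaling and 49.5% with quantile normalization. Without WT C and D, 1 other ribosomal protein gene, Rps27a, was lower, against 0 with all libraries; without single libraries 0 were higher and 0 lower. For the paralog pairs, 0 passed whichever library was left out. Leaving out WT C and D was not run there, since 2 against 4 libraries allow no p below 0.0667. The causes of these changes were not tested. Copies of at least 95% identity and single-library fits of the pairs were added after seeing the data. No paired analysis was run, since the labels name no pairs of WT and POLG libraries. FPKM hold no read totals, so counting error is unknown, and the Rpl3 level depends on how fragments shared with its copies were assigned.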
